A study of Homo sapiens with 21 samples.

Results

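U937 cells that carried the SYK hairpin shSYK_2 were compared with U937 cells that carried the SYK hairpin shSYK_1, 2 arrays against 2 of the 21 arrays of the series. U937 is an established human monocytic line from a histiocytic lymphoma. Cells were infected with a vector for a short hairpin RNA against luciferase (shLuc, the control) or against SYK (shSYK_1 or shSYK_2). Selection with puromycin at 1 µg/ml began 48 h later, and RNA was collected at day 5. All groups carried a hairpin and received puromycin. RNA was read on Affymetrix HT U133A arrays, where groups of short probes (probe sets) measure each transcript. U937 had 3 shLuc arrays, and the same groups existed in the leukaemia lines MOLM-14 and HL-60. Replicates are numbered in the titles, which do not say whether each was a separate transduction. The p-values therefore measure the spread between replicate arrays, pooled over the 9 groups of the 3 lines. In bulk RNA, a change in the share of cells of one kind and a change in RNA per cell cannot be told apart.

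SYK is a cytoplasmic tyrosine kinase. It binds phosphorylated ITAM motifs on adaptors of Fc receptors, C-type lectins and integrin-linked complexes, and signals in macrophages, neutrophils and B cells. Monocytic leukaemia lines such as U937 can be driven towards macrophage-like cells, with a rise of surface integrins, S100 proteins and lysosomal enzymes and an exit from the cell cycle. A hairpin is cut into a guide strand that is loaded into Argonaute and pairs with its target transcript. The guide's bases 2 to 8, the seed, can also pair with other transcripts, so different hairpins against 1 gene share the intended target and not the seed.

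The target sites are shown because the guide, and with it the seed, is the designed difference between the compared groups. Both sites are 21 bases long, and capitals mark the bases that pair with the seed of the guide in the target lines and the seed itself in the guide lines. The guide is written as the reverse complement of the target, on the assumption that it starts opposite the last target base, which was not measured.
shSYK_1 target: gcagcagaacagaCATGTCAa
shSYK_1 guide: tTGACATGtctgttctgctgc
shSYK_2 target: gcaggccatcatcAGTCAGAa
shSYK_2 guide: tTCTGACTgatgatggcctgc
The seeds differ, and 0 of 2370 mature human miRNAs in the RefSeq table held either seed at bases 2 to 8. Matches to the seeds in other transcripts were not analysed here.

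Differences over 12165 genes came from 1 linear model that held all 9 groups, as log2 of the shSYK_2 mean minus the shSYK_1 mean. A gene was called, and is said to have risen or fallen, at a limma adjusted p below 0.05. Arrays of the same U937 group correlated at 0.997 to 0.998 over all probe sets, and shSYK_1 with shSYK_2 arrays at 0.991 to 0.992. The median intensity of the 7 U937 arrays ran from 19.96 to 20.59. Among genes known from U937 and myeloid cells, ELANE (mean log2 of 12.5 with shLuc), CEBPA (10.5), PTPRC (9.5), FUT4 (9.1) and ANPEP (8.3) were bright, while MPO (3.4), CSF1R (3.9), SPI1 (4.4) and CD68 (3.1) lay below the median gene of 5.19.

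SYK, the target of both hairpins, was low on all 4 SYK hairpin arrays and lowest with shSYK_2. On its brighter probe set, log2 intensity was 8.66, 8.70 and 8.70 with shLuc, 7.02 and 6.97 with shSYK_1, and 6.57 and 6.55 with shSYK_2. The 3 groups did not overlap. Between the hairpins alone this was usual, as the 4 hairpin arrays did not overlap in 7166 of the 12165 genes. Arrays that stand apart, here or in later genes, therefore say little on their own. The shSYK_1 cells kept 31.1% of the shLuc intensity and the shSYK_2 cells 22.9%. The hairpins differed by -0.44 (SE 0.0895, 95% interval -0.63 to -0.25, limma adjusted p = 0.00147). On the other probe set 30.8% and 23.9% remained, and the difference was -0.37 (limma adjusted p = 0.00797 over all probe sets). The depth of SYK loss therefore differed between the compared groups beside the seed.

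Between the hairpins, 1443 genes (11.9% of those tested) were higher with shSYK_2 and 1354 (11.1%) were lower, 2797 in all. The counts of list members below stand against these shares. Genes of DNA replication and mitosis were lower with shSYK_2, as were S100A8, S100A9, ITGAM and other genes of maturing monocytes. MYC, amino acid response genes and some primary granule and antigen presentation genes were higher. The median absolute difference of the called genes was 0.46 log2. A difference of at least 1 log2 was reached by 83 genes higher and 128 lower.

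**Figure D1:**
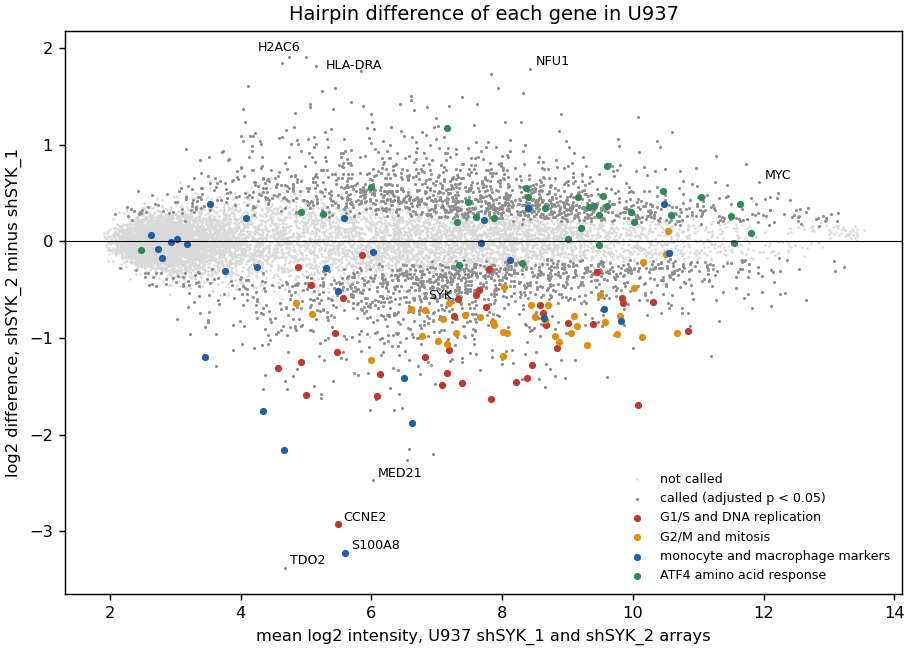
Log2 difference between U937 shSYK_2 and shSYK_1 for each of 12165 genes (vertical axis) against the mean log2 intensity of the 4 arrays (horizontal axis). Genes of G1/S and G2/M sit below 0, SMC4 excepted, while genes of the ATF4 amino acid response sit mostly above it.

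The largest fall was that of TDO2, an enzyme that degrades tryptophan. Its log2 intensity was 2.44, 2.31 and 2.37 with shLuc, 6.44 and 6.29 with shSYK_1, and 2.88 and 3.09 with shSYK_2. TDO2 was thus high with shSYK_1, and the difference was -3.38 (SE 0.146, limma adjusted p = 1.78e-10). CCNE2, a G1/S cyclin, moved from the control in opposite directions with the hairpins. It was 5.98, 6.10 and 5.97 with shLuc, 6.85 and 7.05 with shSYK_1, and 4.37 and 3.69 with shSYK_2, a difference of -2.93 (SE 0.215, limma adjusted p = 5.91e-08). MED21, a subunit of the Mediator complex, was low with shSYK_2 alone among the 3 U937 groups. Its values were 7.15, 7.20 and 7.12 with shLuc, 7.26 and 7.25 with shSYK_1, and 4.88 and 4.69 with shSYK_2. TRIP13, an ATPase of the mitotic checkpoint, behaved alike, at 7.61, 7.75 and 7.60, at 7.77 and 7.58, and at 5.42 and 5.40. SGK1, a kinase of ion transport and survival signalling, was raised with shSYK_1 instead, with 5.15, 5.09 and 4.92 for shLuc, 7.75 and 7.54 for shSYK_1, and 5.49 and 5.50 for shSYK_2. GLIPR1 (-1.72), SCML1 (-1.75), MS4A4A (-1.63), and PLK4 (-1.74), the kinase that starts centriole duplication, were also among the 15 largest falls. Averaged over its 3 probe sets, PLK4 differed by -1.11.

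Some of the largest rises were of genes high with shSYK_2 and others of genes low with shSYK_1. H2AC6, a histone H2A gene, was 4.04, 3.69 and 4.12 with shLuc, 4.13 and 3.97 with shSYK_1, and 5.94 and 5.98 with shSYK_2, a difference of 1.91 (SE 0.144, limma adjusted p = 8.39e-08). HLA-DRA, the alpha chain of the class II protein HLA-DR, had the same form, with 4.25, 4.25 and 4.52, then 3.92 and 4.58, then 6.14 and 5.99. In both, shSYK_2 stood above the control and shSYK_1 did not differ from it past the threshold. NFU1, which delivers iron-sulfur clusters in mitochondria, was low with shSYK_1. It was 9.04, 8.91 and 8.98 with shLuc, 7.61 and 7.46 with shSYK_1, and 9.34 and 9.30 with shSYK_2, a difference of 1.78 (SE 0.0725, limma adjusted p = 8.29e-11). It was also 0.34 above the control with shSYK_2 (limma adjusted p = 0.00162). DYNLT3, a dynein light chain (1.73), JADE3 (1.51), TASOR (1.53), a subunit of the HUSH silencing complex, and the kinase MAP4K4 (1.49) lay near the control with shSYK_2, without a call against it, and 1.42 to 1.69 below it with shSYK_1. TSGA10 (1.91), GSG1 (1.85), PPARGC1A (1.76), a coactivator of mitochondrial genes, PDYN (1.60), H2BC12 (1.59), KCNMB1 (1.59), SPOCK1 (1.56) and DPEP2 (1.47) complete the 15 largest rises. Averaged over probe sets, TASOR differed by 0.99 and MAP4K4 by 0.74. With 16 added to each intensity, H2AC6, TSGA10, GSG1, PDYN and TDO2, which are dim, differed by 1.26, 1.19, 1.11, 0.83 and -2.04.

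**Figure D2:**
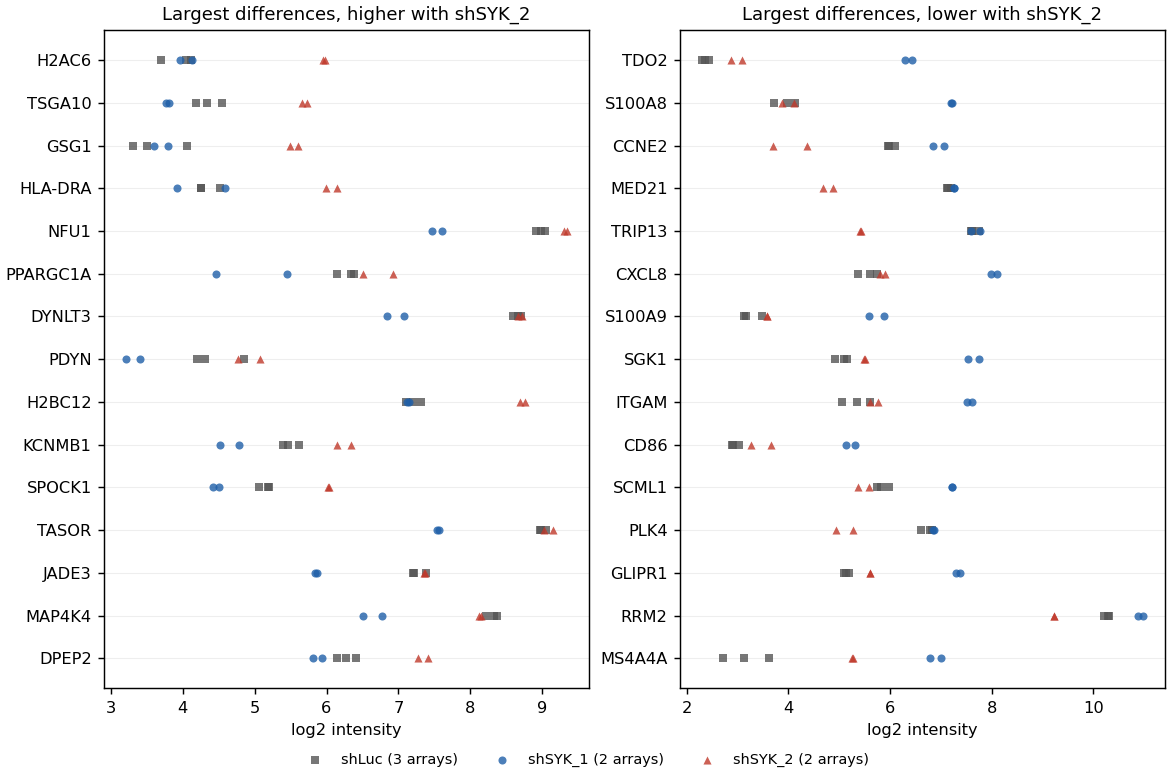
Log2 intensity of the 15 genes with the largest rise (left) and fall (right) on each of the 7 U937 arrays, with shLuc as squares, shSYK_1 as circles and shSYK_2 as triangles. For MED21, TRIP13, H2AC6 and H2BC12 the shSYK_2 arrays stand apart from the others, while for TDO2, S100A8, SGK1, NFU1 and TASOR the shSYK_1 arrays do.

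Against shLuc, 1038 genes (8.53%) rose and 1018 (8.37%) fell with shSYK_1, and 1012 (8.32%) rose and 964 (7.92%) fell with shSYK_2. These comparisons share the 3 shLuc arrays, and each shares 2 arrays with the comparison of the hairpins. Their values are therefore given side by side, with no overlap drawn from them.

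Genes of DNA synthesis were lower with shSYK_2 throughout. Of 39 measured G1/S and replication genes, 36 (92.3%) fell, 3 did not pass the test and 0 rose, with a median difference of -0.92, where the median of all genes was 0.00. Against shLuc the list had a median of -0.98 with shSYK_2, with 38 called lower and 0 higher, and of -0.05 with shSYK_1, with 8 lower and 3 higher. RRM2, a subunit of ribonucleotide reductase, was 10.30, 10.29 and 10.21 with shLuc, 10.97 and 10.88 with shSYK_1, and 9.22 and 9.23 with shSYK_2. It lay above the control with shSYK_1 (0.66, limma adjusted p = 1.61e-06) and below it with shSYK_2 (-1.04, limma adjusted p = 7.51e-09). CDC45, a part of the replicative helicase, was 6.81, 6.79 and 6.83 with shLuc, 6.94 and 6.85 with shSYK_1, and 5.30 and 5.28 with shSYK_2. The arrays of shLuc and shSYK_1 lay close to one another and those of shSYK_2 far below, with a difference of -1.60 (SE 0.0627, limma adjusted p = 8.29e-11). FEN1, which trims Okazaki fragments (-1.62), MCM3 of the helicase ring (-1.42), GINS1 (-1.28) and PCNA, the sliding clamp (-0.92), were lowest with shSYK_2 as well.

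The 3 members not called were CDT1 (-0.26), RFC5 (-0.14) and E2F1 (-0.45). RFC5, a clamp loader subunit, was lower than shLuc with both hairpins, by 1.16 on the log2 scale with shSYK_1 and by 1.30 with shSYK_2. RPA2, which coats single-stranded DNA, differed by -0.79 from shLuc with shSYK_1 and by -1.47 with shSYK_2. These 4 genes and PCNA were named after their values were seen. Averaged over its 2 probe sets, RRM2 differed between the hairpins by -1.09.

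Mitotic genes were lower in the same way. Of 39 measured mitotic and G2/M genes, 37 (94.9%) fell and 0 rose, while CKS2 (-0.13) and SMC4 (0.10) did not pass, with a median of -0.81. Against shLuc the medians were -0.73 with shSYK_2 (38 lower, 0 higher) and 0.09 with shSYK_1 (2 lower, 7 higher). FOXM1, a transcription factor of mitotic genes, was 6.50, 6.45 and 6.49 with shLuc, 6.67 and 6.54 with shSYK_1, and 5.38 on both shSYK_2 arrays (difference -1.23, SE 0.0677, limma adjusted p = 3.03e-09). DLGAP5, a spindle protein, was 8.29, 8.25 and 8.26, then 8.66 and 8.55, then 7.47 and 7.37. It stood above shLuc with shSYK_1 and below it with shSYK_2. TPX2, which activates Aurora A, fell by 0.98 on the log2 scale, the kinesin KIF2C also by 0.98, and PTTG1, the securin that holds back separase, by 0.95. The summed linear intensity of the list was 23593 to 24170 on the shLuc arrays, 23674 to 24501 with shSYK_1 and 14881 to 15317 with shSYK_2.

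Motifs of cell cycle promoters were searched in these lists. The 4 printed promoters were taken, by smallest p, from fallen members whose promoters held the marked motifs. Members on a particular chromosome were set aside before that choice. Their matches were thus fixed by the choice and do not describe the fallen genes at large. GINS2, chosen by the same rule for the E2F motif, is not printed. Sequences are from RefSeq on GRCh38.p14, 250 bases before the annotated start, 5′ to 3′ on the gene's strand. Motifs were searched on both strands, each independently of the others. They were the E2F motif as TTTCCCGC or TTTGGCGC, the cell cycle homology region (CHR) as TTTGAA or TTCGAA, and CCAAT. Capitals mark the E2F motif in MCM3 (chr6:52284743-52284992, minus strand) and PCNA (chr20:5126623-5126872, minus strand), and CHR and CCAAT in DLGAP5 (chr14:55191586-55191835, minus strand) and KIF4A (chrX:70289854-70290103, plus strand).
MCM3 promoter: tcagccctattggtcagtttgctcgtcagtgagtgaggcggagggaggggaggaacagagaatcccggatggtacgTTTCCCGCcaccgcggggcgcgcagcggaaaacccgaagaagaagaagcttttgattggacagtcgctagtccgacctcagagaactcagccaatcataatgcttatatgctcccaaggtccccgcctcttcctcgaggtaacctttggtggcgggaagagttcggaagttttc
PCNA promoter: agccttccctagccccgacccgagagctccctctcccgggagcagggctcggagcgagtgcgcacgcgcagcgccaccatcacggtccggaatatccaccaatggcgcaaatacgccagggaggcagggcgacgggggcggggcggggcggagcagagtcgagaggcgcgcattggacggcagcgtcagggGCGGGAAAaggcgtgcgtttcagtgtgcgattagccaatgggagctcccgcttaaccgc
DLGAP5 promoter: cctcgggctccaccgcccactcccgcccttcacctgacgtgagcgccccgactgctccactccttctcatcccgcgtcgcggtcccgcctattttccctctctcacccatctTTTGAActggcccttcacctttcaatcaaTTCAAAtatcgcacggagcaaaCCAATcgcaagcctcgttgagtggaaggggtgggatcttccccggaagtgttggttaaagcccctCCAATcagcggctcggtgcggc
KIF4A promoter: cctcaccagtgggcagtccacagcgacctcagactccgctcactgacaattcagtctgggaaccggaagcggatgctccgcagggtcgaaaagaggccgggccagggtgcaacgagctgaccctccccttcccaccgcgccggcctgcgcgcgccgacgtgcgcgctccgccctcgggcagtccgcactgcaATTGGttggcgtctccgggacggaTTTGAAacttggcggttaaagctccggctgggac
E2F letters stood in 12 of 33 matched promoters of the G1/S list (36.4%), in 2 of 33 of the G2/M list (6.06%) and in 2.80% of the 9711 promoters of tested genes. CHR letters stood in 19 of 33 G2/M promoters (57.6%), in 6.06% of the G1/S promoters and in 10.9% of all. CCAAT stood in 27 of 33 G2/M promoters (81.8%), 51.5% of G1/S promoters, 51.7% of promoters of the ATF4 amino acid list, which are not cell cycle genes, and 35.8% of all. No difference in these shares was tested. Of all genes lower with shSYK_2, 5.19% of promoters held the E2F letters, against 2.71% of those of genes that were higher. A match describes letters and shows no binding.

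Among 18 cyclins, CDKs and CDK inhibitors of G1, 7 fell (38.9%) and 5 rose (27.8%), where 11.1% and 11.9% of all genes did. CCNE1, the partner of CDK2 at S phase entry, was 5.85, 5.95 and 5.71 with shLuc, 6.04 and 6.07 with shSYK_1, and 4.84 and 4.97 with shSYK_2 (difference -1.15). CCND3, a D-type cyclin, differed in another way. It was 7.70, 7.79 and 7.58 with shLuc and close to that with shSYK_2 (7.85 and 7.86), and 8.93 and 8.86 with shSYK_1, a difference of -1.04 (SE 0.0791, limma adjusted p = 8.52e-08). CDC25A, a phosphatase that activates CDK2, fell by 0.92 on the log2 scale, and CDKN1A, the inhibitor p21, also fell (-0.91). CDKN1A was 0.60 above shLuc with shSYK_1 (limma adjusted p = 0.00623) and 0.31 below it with shSYK_2, which did not pass (limma adjusted p = 0.159). The rises, named here after their values were seen, were those of CDKN2A (0.68), RBL2 (0.45), CDKN1B (0.42), RB1 (0.36) and CCND2 (0.31). Another CCND2 probe set went the other way (-0.39, limma adjusted p = 0.0249 over all probe sets). Averaged over its 3 probe sets, CCND2 differed by -0.0199, so its direction depends on the probe set. Of this list, 3 members rose without shSYK_2 replicate 2 and 2 with the mean of all probe sets.

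Markers of monocytes and macrophages were higher than the control with both hairpins, and a group of them much more with shSYK_1. Of 29 measured, 10 (34.5%, against 11.1% of all genes) were lower with shSYK_2 than with shSYK_1, with a median of -0.17. Another 2 were higher (6.90%, against 11.9%) and 17 were not called. Against shLuc, 18 rose and 1 fell with shSYK_1 (median 0.54), and 15 rose and 1 fell with shSYK_2 (median 0.32). S100A8, a calcium-binding protein of phagocytes, was 4.12, 3.71 and 3.97 with shLuc, 7.21 and 7.22 with shSYK_1, and 3.87 and 4.10 with shSYK_2. The shSYK_2 arrays lay within the control range, and the hairpins differed by -3.22 (SE 0.129, limma adjusted p = 8.29e-11). Its partner S100A9 was 3.17, 3.47 and 3.13, then 5.58 and 5.89, then 3.57 and 3.59 (difference -2.16). ITGAM, the CD11b integrin, was 5.35, 5.61 and 5.06 with shLuc, 7.50 and 7.60 with shSYK_1, and 5.60 and 5.76 with shSYK_2. It was 2.21 above shLuc with shSYK_1 and 0.34 with shSYK_2 (limma adjusted p = 0.0458), and the hairpins differed by -1.87 (SE 0.121).

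CD86, a costimulator of T cells, was 3.02, 2.92 and 2.90 with shLuc, 5.31 and 5.13 with shSYK_1, and 3.27 and 3.66 with shSYK_2 (difference -1.76). CD163, a scavenger receptor for haemoglobin, rose above shLuc with shSYK_1 (1.21) and was at 0.01 with shSYK_2. CD36, another scavenger receptor, was 3.49 above shLuc with shSYK_1 and 2.08 above it with shSYK_2, so that it rose with both and the hairpins still differed by -1.41. ITGAX (-0.26), TYROBP (-0.19) and CX3CR1 (-0.02), which rose with each hairpin against shLuc, did not pass the test between the hairpins. These 3 and CD36 were named after their values were seen. CD14 (-0.17), CSF1R (0.24) and MRC1 (0.07), defining markers of monocytes or macrophages, passed in none of the 3 U937 comparisons and lay between 2.6 and 3.9 with shLuc. Averaged over probe sets, S100A8 differed by -1.82, ITGAM by -0.97, CD86 by -0.84 and CD163 by -0.64, and 0 markers were higher. With 16 added to each intensity, S100A9 differed by -1.31, CD86 by -0.98 and CD163 by -0.49.

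**Figure D3:**
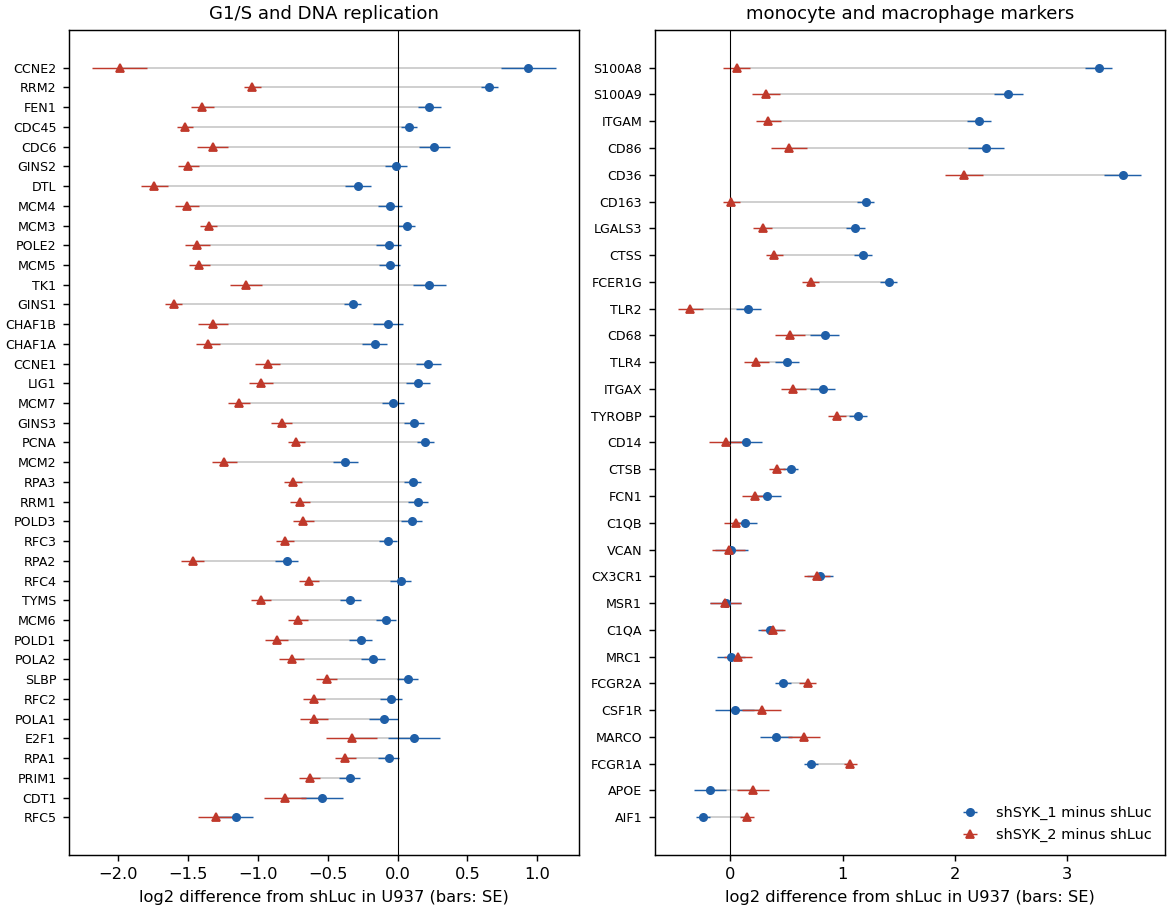
Log2 difference from shLuc for each measured G1/S and replication gene (left) and each monocyte and macrophage marker (right) in U937, with shSYK_1 as circles, shSYK_2 as triangles and bars for the SE of the fit. On the left shSYK_1 scatters around 0 while shSYK_2 lies below it. On the right both hairpins lie mostly above 0, and shSYK_1 lies farther out for S100A8, S100A9, ITGAM, CD86 and CD36.

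Receptors that signal through ITAM adaptors gave 5 lower (26.3%), 2 higher (10.5%) and 12 not called of 19 (median -0.19). Over all genes, 11.1% were lower and 11.9% higher. FCER1G, the Fc receptor gamma chain that recruits SYK, was 8.44, 8.53 and 8.51 with shLuc, 9.91 and 9.90 with shSYK_1, and 9.21 and 9.20 with shSYK_2. It rose with each hairpin against the control, and about 0.70 less with shSYK_2 (SE 0.0810, limma adjusted p = 7.87e-06). FCGR2B, the inhibitory IgG receptor, rose above shLuc by 2.18 with shSYK_1 and by 1.55 with shSYK_2 (difference -0.63). Without shSYK_1 replicate 2 or either shSYK_2 array, 3 of these receptors fell, and with the mean of all probe sets 0 rose. Probe sets of FCGR2B can also bind FCGR2A transcripts. Of 19 genes of neutrophil maturation, 6 fell (31.6%), 2 rose (10.5%) and 11 did not pass. CYBB, the catalytic subunit of the phagocyte NADPH oxidase, was 6.01, 6.05 and 5.80 with shLuc, 7.56 and 7.58 with shSYK_1, and 6.65 and 6.67 with shSYK_2 (difference -0.91). The antimicrobial peptide CAMP differed by -0.88 and the formyl peptide receptor FPR1 by -0.74. CSF3R, the G-CSF receptor, went the other way and was 5.71, 5.88 and 5.81 with shLuc, 5.35 and 5.62 with shSYK_1, and 6.52 and 6.49 with shSYK_2 (1.02, SE 0.113). Without shSYK_1 replicate 1, 3 genes of this list fell. Averaged over probe sets, CYBB differed by -0.45 and FPR1 by -0.40.

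Genes of the promyelocyte stage were in part higher with shSYK_2. Of 12 primary granule proteins, 4 rose (33.3%), 2 fell (16.7%) and 6 did not pass, with a median of -0.02. Over all genes, 11.9% rose and 11.1% fell. AZU1, the granule protein azurocidin, was 9.48, 9.55 and 9.52 with shLuc, 8.45 and 8.47 with shSYK_1, and 9.45 and 9.55 with shSYK_2. The shSYK_2 arrays lay next to the control and shSYK_1 was lower, with a difference of 1.04 (SE 0.0812, limma adjusted p = 1.21e-07). MS4A3, a membrane protein of granulocyte progenitors, followed the same order, with 10.03, 10.00 and 10.04, then 9.31 and 9.46, then 10.09 and 10.15 (difference 0.74). ELANE, neutrophil elastase, was not called (-0.01). RNASE2 fell by 0.60 on the log2 scale. Among 20 myeloid transcription factors, 5 rose (25%) and 1 fell (5%). MYB, which sustains progenitor growth, was 10.91, 10.90 and 10.87 with shLuc, 10.63 and 10.43 with shSYK_1, and 11.041 and 10.998 with shSYK_2. IRF8, which directs the monocyte lineage, was lower than shLuc with both hairpins, by 0.77 and 0.30, and higher with shSYK_2 than with shSYK_1 (0.46). The inhibitor of bHLH factors ID2 fell (-0.59), and CEBPA (0.08) and SPI1 (-0.17) did not pass. MYB differed by 0.49, or 0.88 averaged over its 2 probe sets. The 5 rises of this list became 3 without shSYK_1 replicate 2, without shSYK_2 replicate 1 and with the replicate block, and 2 without shSYK_2 replicate 2. The falls became 3 with the U937 arrays alone in the model, with the dimmest 40% of genes left out, with quantile normalization and with array weights, and 2 without shSYK_1 replicate 2. The 2 falls among primary granule proteins became 1 with the mean of all probe sets.

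Adhesion molecules, chemokines and lysosomal genes were mixed. Of 17 integrins and adhesion genes, 4 fell (23.5%) and 3 rose (17.6%), where 11.1% and 11.9% of all genes did. The rises were those of ITGAL (0.57), the CD11a integrin, CD44 (0.53), a hyaluronan receptor, and ICAM3 (0.51). The falls numbered 2 without shSYK_1 replicate 1 or shSYK_2 replicate 1. Of 18 chemokines and receptors, 3 fell (16.7%) and 1 rose (5.56%), where 11.1% and 11.9% of all genes did. CXCL8, the neutrophil attractant, was 5.75, 5.60 and 5.37 with shLuc, 7.99 and 8.10 with shSYK_1, and 5.90 and 5.80 with shSYK_2. Its difference was -2.20 (SE 0.395, limma adjusted p = 5.70e-04), and -0.45 averaged over its 9 probe sets. Another of these also fell strongly (-1.63, limma adjusted p = 3.56e-04 over all probe sets). The rest lay between -0.15 and 0.08 and drew the mean towards no difference. The receptor CCR1 differed by -0.88 and the chemokine CCL23 by -0.70. CCL5 was 9.49, 9.57 and 9.37 with shLuc, 8.41 and 8.67 with shSYK_1, and 9.47 and 9.57 with shSYK_2, a rise of 0.98. Of 27 lysosomal genes, 7 fell (25.9%) and 4 rose (14.8%), with a median of -0.03. CTSS, the cathepsin that trims the class II invariant chain, fell by 0.79 on the log2 scale, the proton pump subunits ATP6V0D1 and ATP6V1A by 0.76 and 0.60, and CTSA by 0.59. PSAP (0.35), LIPA (0.34), GLB1 (0.34) and HEXA (0.27), all lysosomal hydrolases or their activator, rose and were named after their values were seen. Those rises numbered 2 without shSYK_1 replicate 2 or shSYK_2 replicate 2. Against shLuc, 16 lysosomal genes rose with shSYK_1 and 10 with shSYK_2, and 0 fell with either.

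Inflammatory and immediate early genes were lower with shSYK_2 where they were called. Of 27 NF-kB and inflammatory genes, 7 fell (25.9%) and 0 rose. Among the falls were IL1B (-0.71), CD83 (-0.94) and the feedback inhibitor TNFAIP3 (-0.61). Against shLuc, TNFAIP3 rose with shSYK_1 (0.70) and was at 0.09 with shSYK_2. JUN, a subunit of AP-1, was 7.22, 6.997 and 7.16 with shLuc, 8.04 and 8.15 with shSYK_1, and 6.999 and 7.08 with shSYK_2. Only the shSYK_1 arrays stood apart, and the difference was -1.06 (SE 0.107, limma adjusted p = 1.85e-06). In the ERK feedback and immediate early list, 4 of 23 fell (17.4%, against 11.1% of all genes) and 0 rose. That count was 1 without shSYK_1 replicate 1 or shSYK_2 replicate 1, 2 without shSYK_2 replicate 2, and 7 with the U937 arrays alone in the model.

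MYC, the growth regulator, was lower with shSYK_1. Its log2 intensity was 12.39, 12.37 and 12.38 with shLuc, 11.61 and 11.65 with shSYK_1, and 12.20 and 12.28 with shSYK_2. The hairpins differed by 0.61 (SE 0.0755, 95% interval 0.45 to 0.77, limma adjusted p = 1.47e-05). MYC fell against shLuc with shSYK_1 (-0.75, limma adjusted p = 1.19e-06), and with shSYK_2 the value of -0.14 did not pass (limma adjusted p = 0.218). Of 34 MYC targets and ribosome biogenesis genes, 1 rose (2.94%), 5 fell (14.7%) and 28 did not pass (median 0.02), where 11.9% of all genes rose and 11.1% fell. The rises ranged from 0 without shSYK_1 replicate 1 to 4 with a trended and robust prior. WDR43, a nucleolar factor of small subunit processing, rose (0.44), although not without shSYK_1 replicate 1. TFRC, the transferrin receptor (-0.76), LDHA (-0.32), EIF5A (-0.35) and CDK4 (-0.29) fell. NPM1 (-0.01), NCL (0.09) and ODC1 (-0.05), chosen after their values were seen, did not pass. Among 12 genes of the MYC network, 3 rose (25%), MYC among them, and 2 fell (16.7%). The antagonist MXD3, which competes for MAX, fell (-0.54), as did MYCBP (-0.25), while MAX (0.35), the partner of both, and MNT (0.28), another antagonist, rose. Without shSYK_1 replicate 1 or shSYK_2 replicate 2, 1 gene of this network rose, and without any 1 of the 4 hairpin arrays 1 fell. Averaged over its probe sets, MAX differed by 0.02.

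Cytosolic ribosomal protein genes gave 10 rises (34.5%, against 11.9% of all genes), 0 falls and 19 not called of 29 (median 0.15). RPS25 was 12.20, 12.02 and 12.21 with shLuc, 11.87 and 12.10 with shSYK_1, and 12.40 and 12.48 with shSYK_2 (0.45, SE 0.0865). Both shSYK_2 arrays lay above the others, and RPL10A (0.34) and RPS9 (0.29) rose too. The number of rises ranged from 4 to 22 with the processing. It was 4 with the U937 arrays alone in the model, with quantile normalization, with the replicate block, and without shSYK_1 replicate 1 or shSYK_2 replicate 1. It was 5 without shSYK_2 replicate 2, 17 with the dimmest 40% of genes left out, 18 with 16 added to each intensity and 22 with a trended and robust prior.

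Some genes that ATF4 induces when amino acids are short rose. Of 33 measured, 14 (42.4%, against 11.9% of all genes) rose, 0 fell and 19 did not pass, with a median of 0.30. DDIT3, the stress factor CHOP, was 7.05, 6.95 and 7.17 with shLuc, 6.55 and 6.58 with shSYK_1, and 7.71 and 7.77 with shSYK_2. It fell with shSYK_1 and rose with shSYK_2 against the control, and the hairpins differed by 1.18 (SE 0.117, limma adjusted p = 1.51e-06). TRIB3, a pseudokinase that restrains ATF4, had the same pattern, with 9.58, 9.56 and 9.67, then 9.15 and 9.28, then 10.02 and 9.97 (0.78). ATF4 itself (0.39), SHMT2 of mitochondrial folate metabolism (0.46) and CBS of transsulfuration (0.56) rose. Against shLuc the list had 2 rises and 10 falls with shSYK_1 (median -0.14) and 8 rises and 1 fall with shSYK_2 (median 0.16). Without shSYK_1 replicate 1, 9 members rose between the hairpins. Of 21 unfolded protein response genes, 5 rose (23.8%) and 4 fell (19.0%), where 11.9% and 11.1% of all genes did. The chaperone HYOU1 rose by 0.87 and SDF2L1 fell by 0.59 on the log2 scale. HSPA5, the chaperone BiP, did not pass (0.14). Without shSYK_1 replicate 1 or shSYK_2 replicate 2, 2 members of this list fell.

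Metabolic lists held more falls than rises with shSYK_2, where 11.1% of all genes fell and 11.9% rose. Of 16 cholesterol synthesis genes, 7 (43.8%) fell and 0 rose (median -0.25). LSS, which closes the sterol rings, was 8.88, 8.85 and 8.75 with shLuc, 8.96 and 8.89 with shSYK_1, and 7.77 and 7.75 with shSYK_2 (-1.16, SE 0.0818). The other probe set of LSS brought the mean to -0.54. EBP, a sterol isomerase (-0.87), HMGCS1 (-0.75), INSIG1, which retains SREBP in the endoplasmic reticulum (-0.74), and MSMO1 (-0.58) fell as well. INSIG1 and MSMO1 rose against shLuc with shSYK_1 (0.69 and 0.57) and were at -0.05 and -0.01 with shSYK_2, unlike LSS, which fell with shSYK_2 (-1.06). Of 20 heme, iron and NRF2 genes, 10 (50%) fell and 1 rose (median -0.27). TXNRD1, thioredoxin reductase, differed by -0.87. NQO1, a quinone reductase, was 7.74, 7.81 and 7.65 with shLuc, 8.98 and 9.05 with shSYK_1, and 8.14 and 8.19 with shSYK_2 (-0.86). PRDX1, a peroxidase, fell (-0.69), and KEAP1, which marks NRF2 for degradation, rose (0.49). Of 22 glycolysis genes, 7 (31.8%) fell and 1 rose (median -0.11). Of 27 oxidative phosphorylation genes, 7 (25.9%) fell and 2 rose (median -0.10). HK3 (-0.90), ALDOA (-0.30) and the complex I subunits NDUFA2 (-0.52) and NDUFS1 (-0.47) fell. With 16 added to each intensity HK3 differed by -0.57. In each of these last lists the falls numbered 4 with the U937 arrays alone in the model, with the replicate block, without shSYK_1 replicate 1 and without either shSYK_2 array, and the oxidative phosphorylation falls also with arrays centred on their median. The 2 oxidative phosphorylation rises became 0 with the U937 arrays alone, with the replicate block and without shSYK_1 replicate 1 or shSYK_2 replicate 2, and 1 without either of the other hairpin arrays. The glycolysis rise became 2 without shSYK_1 replicate 2 and 3 with 16 added.

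**Figure D4:**
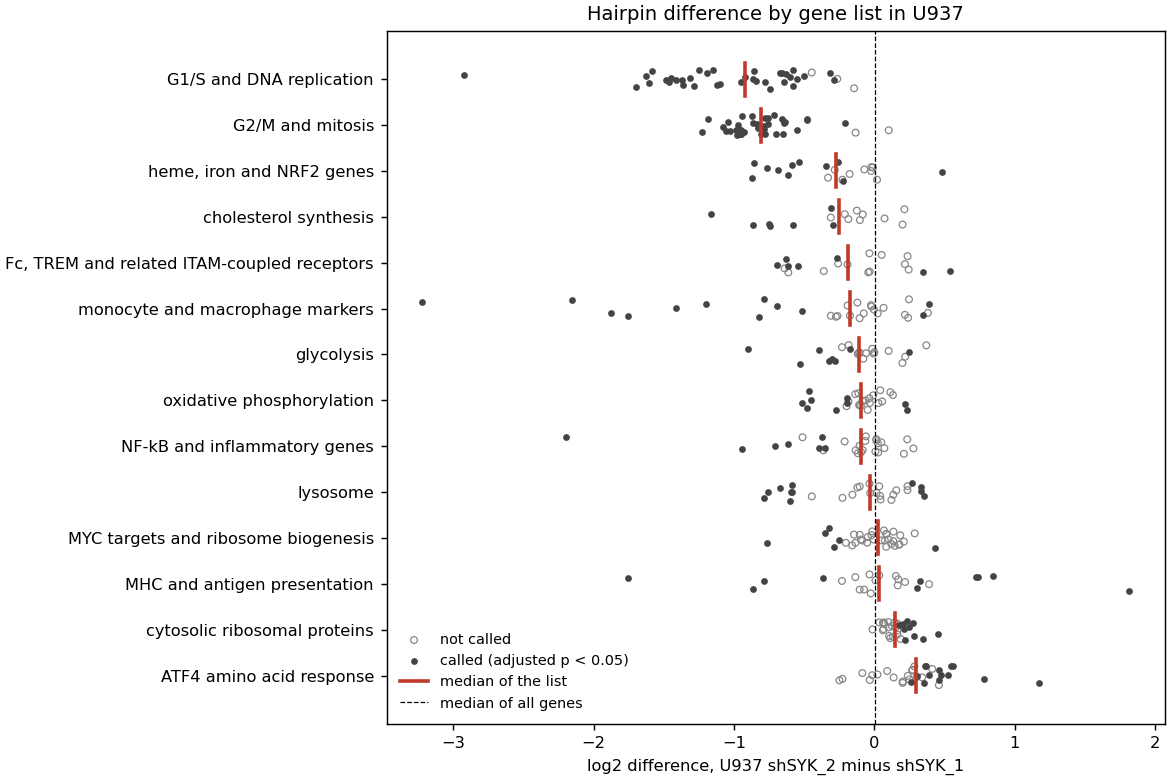
Log2 difference between U937 shSYK_2 and shSYK_1 (horizontal axis) for the measured members of 14 gene lists, with filled points for called genes, open points for genes not called and a bar at each list's median. The medians of G1/S and G2/M lie at -0.92 and -0.81, and that of the ATF4 list at 0.30.

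Of 42 interferon-stimulated genes, 9 fell (21.4%) and 5 rose (11.9%), where 11.1% and 11.9% of all genes did (median -0.11). IFI6 was 7.98, 7.95 and 7.83 with shLuc, 8.89 and 8.98 with shSYK_1, and 8.17 and 7.92 with shSYK_2 (-0.89), and ISG15 differed by -0.50. USP18, which removes ISG15 from proteins, went the other way and was 5.33, 5.81 and 5.56, then 4.30 and 4.04, then 5.41 and 5.59 (1.33, SE 0.189). IFI6 and USP18 lay near the control with shSYK_2. With 16 added to each intensity USP18 differed by 0.85. Without shSYK_1 replicate 1 or shSYK_2 replicate 2, or with the dimmest 40% of genes left out, 3 genes of this list rose. Of 23 antigen presentation genes, 6 rose (26.1%) and 4 fell (17.4%). HLA-DRA rose by 1.82 and HLA-E, a ligand of NK receptors, by 0.72, while IFI30, the lysosomal thiol reductase, fell (-0.86). Of the other class II genes, CD74 (0.74) and HLA-DPA1 (0.85) rose, and HLA-DRB1 (0.39), HLA-DPB1 (0.17) and their activator CIITA (0.15) did not pass. These 5 were named after their values were seen, and HLA probe sets can bind transcripts of related HLA genes.

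Of 19 p53 targets, 4 rose and 4 fell (21.1% each), where 11.9% and 11.1% of all genes did. TIGAR, which lowers glycolytic flux, was 6.36, 6.44 and 6.58 with shLuc, 7.22 and 7.36 with shSYK_1, and 6.40 and 6.49 with shSYK_2 (-0.84). DDB2, a DNA damage sensor, fell (-0.64), and GADD45A (0.52) and CCNG1 (0.33) rose. Without shSYK_2 replicate 1, 2 p53 targets rose. Of 26 BCL2 family and caspase genes, 7 fell (26.9%) and 2 rose (7.69%). CASP1, the inflammatory caspase, differed by -0.86, CASP6 by -0.76 and BID by -0.46. BCL2L1, which encodes BCL-XL, was 6.96, 6.94 and 6.54 with shLuc, 6.89 and 7.09 with shSYK_1, and 7.51 and 7.79 with shSYK_2 (0.66, SE 0.143, limma adjusted p = 0.00251). It was the shSYK_2 arrays that stood apart there. BCL2 (-0.02) and MCL1 (0.01) did not pass. Without shSYK_1 replicate 1 or shSYK_2 replicate 2, 1 member of this list rose.

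FLT3, the receptor tyrosine kinase named in the title of the series, did not pass between the hairpins. Its log2 intensity was 4.39, 4.17 and 4.89 with shLuc, 4.01 and 4.06 with shSYK_1, and 4.22 and 4.30 with shSYK_2, all below the median gene. The difference was 0.23 (SE 0.159, 95% interval -0.11 to 0.56, limma adjusted p = 0.371), so differences up to that upper bound remain possible. Of 32 receptor tyrosine kinases and cytokine receptors, 9 rose (28.1%) and 1 fell (3.1%). The shared beta chain CSF2RB (0.53), the TNF receptor TNFRSF1A (0.43) and CSF3R rose, and TGFBR2 (-0.53) fell. IFNAR2, a chain of the type I interferon receptor, rose by 0.66, or 0.31 averaged over its 2 probe sets. Of 30 SYK signalling components, 5 rose (16.7%) and 4 fell (13.3%), the latter including SYK. These shares were near the 11.9% and 11.1% of all genes. The rises numbered 8 with the mean of all probe sets, with the dimmest 40% of genes left out, with 16 added, with a trended and robust prior and with array weights. The kinase BTK was 9.76, 9.77 and 9.81 with shLuc, 9.28 and 9.45 with shSYK_1, and 9.95 and 10.14 with shSYK_2 (0.68). Its substrate PLCG2 (0.55) and the lipid phosphatase INPP5D (0.67) were lower than shLuc with shSYK_1 and not called with shSYK_2. The SRC family kinase FYN rose by 1.10, or 0.55 averaged over its 4 probe sets. Of 15 STAT5, SOCS and PIM genes, 5 rose (33.3%) and 0 fell, with STAT5B at 0.71. These rises numbered 3 without shSYK_1 replicate 2 and 2 without shSYK_2 replicate 2, where 2 SYK signalling components fell in each case.

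Of 25 replication-dependent histones, 5 rose (20%) and 2 fell (8%), where 11.9% and 11.1% of all genes did. The list was dim, with a median log2 intensity of 3.22 in U937 against 5.19 for all genes. That leaves little room for falls, so their number says little. H4C3 was 11.18, 11.18 and 11.11 with shLuc, 11.20 and 11.22 with shSYK_1, and 10.56 and 10.39 with shSYK_2 (-0.74, SE 0.0766). H2BC12 was 7.10, 7.20 and 7.31, then 7.15 and 7.12, then 8.70 and 8.76 (1.59, SE 0.0771). The shSYK_2 arrays stood apart in both genes, in opposite directions. H2BC5 (1.06) and H2BC9 (0.85) rose too, the latter at low intensity and by 0.40 with 16 added to each intensity. Probe sets of histone H2A and H2B genes can bind transcripts of near-identical copies. Among 12 genes of the small RNA pathway, AGO1, an Argonaute, fell (-0.70) and the other 11 did not pass. That share of falls (8.33%) was near the 11.1% of all genes. The falls numbered 3 with the mean of all probe sets, and 1 gene rose without shLuc replicate 3.

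Most markers of other cell types were dim, with list medians of 2.95 to 3.37, apart from NKG7, a granule protein of NK cells and cytotoxic T cells, at a mean of 10.3 with shLuc and IL2RB, a chain of the IL-2 receptor, at 5.87. Of 11 erythroid and 10 megakaryocyte genes 0 were called by limma, and 1 gene each was called in the T and NK cell (of 16), B cell (of 9) and epithelial and stromal lists (of 15). These were NKG7 (0.26, limma adjusted p = 0.0439), FCER2 (0.88) and MUC1 (0.49). With 16 added to each intensity FCER2 and MUC1 differed by 0.54 and 0.29. Each lost its call without at least 1 single U937 array. The summed intensity of the B cell list was 117 to 118 on the shLuc arrays, 92.6 to 97.3 with shSYK_1 and 114 to 121 with shSYK_2. That of the T and NK cell list, most of it NKG7, was 1409 to 1483, then 1283 to 1302, then 1427 to 1615. The erythroid sums were 175 to 188, 175 to 187 and 168 to 175, the megakaryocyte sums 86.9 to 88.9, 83.7 to 87.7 and 87.4 to 87.8, and the epithelial and stromal sums 149 to 165, 144 to 148 and 151 to 153. CD3E, MS4A1, GATA1 and EPCAM, which define the T cell, B cell, erythroid and epithelial lists, lay between 2.2 and 3.2 with shLuc. The part of other cell types in the results was not tested further.

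The difference between the hairpins in U937 was then set against the same difference in MOLM-14 and HL-60, which shares no array with it. In MOLM-14, 1600 genes (13.2%) were higher and 1555 (12.8%) lower with shSYK_2, and in HL-60 1167 (9.59%) and 1537 (12.6%). The HL-60 shSYK_2 group held 2 arrays, and the source name of an array titled shSYK_2 conflicts with that title. All HL-60 values here and below follow the title and would change if the source name were right. Of the 1443 genes higher in U937, 660 were also higher in MOLM-14, which is 45.7% of the U937 genes and 41.2% of the MOLM-14 genes. In HL-60 445 were, 30.8% and 38.1% of the lists. Of the 1354 genes lower in U937, 609 were lower in MOLM-14 (45.0% and 39.2%) and 542 in HL-60 (40.03% and 35.3%). Calls in the opposite direction numbered 86 and 74 in MOLM-14 and 88 and 54 in HL-60. Over all genes the differences correlated at 0.436 between U937 and MOLM-14 and at 0.348 between U937 and HL-60, where genes share the array and are not independent.

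A difference in 1 direction was called in all 3 lines for 331 genes higher and 378 lower. These were 22.9% of the genes higher in U937 and 27.9% of those lower. Of all genes tested, 4.69% were called higher in both MOLM-14 and HL-60, and 6.18% lower. NFU1 differed by 1.78 in U937, 1.79 in MOLM-14 and 1.74 in HL-60, and MED21 by -2.47, -2.18 and -2.18. H2AC6 (1.91, 1.79 and 1.03), JADE3 (1.51, 1.92 and 0.95), DYNLT3 (1.73, 1.55 and 1.01), CCNE2 (-2.93, -1.73 and -1.77) and ITGAM (-1.87, -1.30 and -1.40) were of this kind. MYC rose in all 3 (0.61, 0.78 and 0.31). SYK differed by -0.44, -0.67 and -0.24, the last of which did not pass (limma adjusted p = 0.0716).

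In the cell cycle lists the U937 difference departed in size from that of the other lines, where some mitotic genes fell too. A contrast of the U937 difference with the mean of the MOLM-14 and HL-60 differences called 997 genes higher (8.20%) and 880 lower (7.23%). It contains the U937 arrays that gave the differences above, so genes chosen for a large U937 difference also tend to a large contrast. Of the 39 G1/S genes, 35 were called lower in that contrast and 0 higher, and of the 39 G2/M genes 36 and 0. The G1/S medians were -0.92 in U937, -0.05 in MOLM-14 and 0.04 in HL-60, and the G2/M medians -0.81, -0.12 and -0.10. Of the G2/M genes, 9 were called lower and 6 higher in MOLM-14, and 10 lower and 2 higher in HL-60. Over all genes, 12.8% were lower in MOLM-14 and 12.6% in HL-60. FOXM1 (-1.23, -0.30 and -0.20) and KIF2C (-0.98, -0.34 and -0.25) were called lower in all 3 lines. CDC45 differed by -1.60 in U937, -0.11 in MOLM-14 and 0.15 in HL-60. The test of that gap gave -1.62 (limma adjusted p = 4.52e-09). BLM, a helicase of recombination repair, fell in U937 (-1.21) and rose in MOLM-14 (0.71) and HL-60 (0.27). DTL, which targets CDT1 for degradation, differed by -1.46, 0.16 and 0.21.

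The medians of the monocyte markers were -0.17 in U937, -0.36 in MOLM-14 and -0.31 in HL-60, and the contrast called 7 of 29 higher and 5 lower. S100A9 fell in all 3 lines (-2.16, -2.998 and -0.86), and its contrast did not pass (limma adjusted p = 0.435). CD86 (-1.76, -2.61 and -0.97) and SGK1 (-2.15, -2.41 and -0.36) likewise did not pass in the contrast. TDO2 fell in U937 (-3.38) and was at -0.03 and -0.16 in the other lines. MYC targets had medians of 0.02, 0.34 and 0.16, with 25 of 34 higher in MOLM-14 and 13 called lower in the contrast. For the ATF4 list the medians were 0.30, 0.78 and -0.15. FLT3, which did not pass in U937, differed by 0.98 in MOLM-14 and 0.87 in HL-60, and its contrast was called (limma adjusted p = 0.0221).

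**Figure D5:**
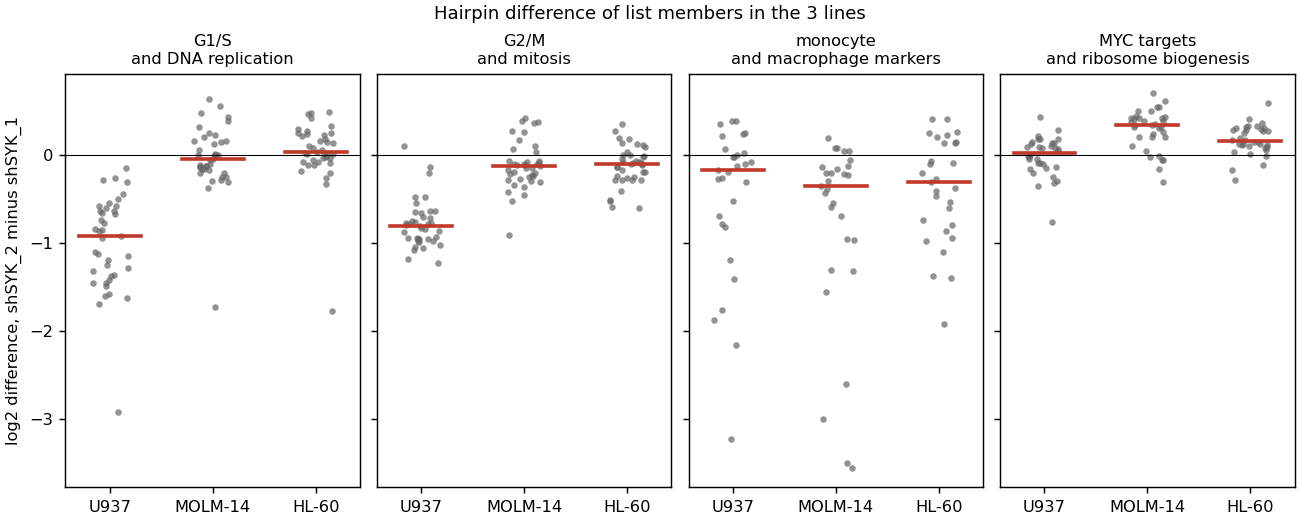
Log2 difference between shSYK_2 and shSYK_1 in U937, MOLM-14 and HL-60 for the members of 4 lists, with a bar at each median. All G1/S genes and all G2/M genes but SMC4 lie below 0 in U937, while the medians in the other lines lie between -0.12 and 0.04, and monocyte markers have medians below 0 in all 3.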

How the data were processed

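The deposited values were linear intensities, 1 for each probe set on each array. RMA (version not stated) is the summary method that the submitters' processing notes name. RMA brings arrays to 1 distribution and compresses folds at low intensity. The deposited intensities ran from 3.23 to 13025, so log2 was taken here with no pseudocount, although the planned test assumed log2 values. Of 22277 probe sets, 19730 carried 1 gene symbol, 568 several and 1979 none, and those with several or none were left out. Symbols were updated through RefSeq gene IDs for 19713 and kept for 17. For each of 12165 genes the probe set brightest on average across the arrays was used.

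A model with 9 group means over 21 arrays was fitted with limma 3.58.1 in R 4.3.3 (12 residual and 4.09 prior degrees of freedom), two-sided, with Benjamini-Hochberg adjustment over all genes, and checked on simulated data. The number of arrays limits the precision, with a median SE of 0.119. No identical arrays were found. The title of HL-60 shSYK_2 replicate 1 conflicts with its source name, and the title was followed.

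The comparison and the 37 lists (854 genes, 767 measured) were chosen with earlier results of these data known. The named genes were SYK, FLT3, MYC, the 15 largest called differences each way, up to 5 called members with the smallest p per list and up to 8 called genes each way in the line contrast. Other list members named without such a remark, among them those not called and the defining markers, were likewise chosen after their values were seen. Lists are described by counts and medians, with no test. Alternatives covered the model's arrays, probe set summary, dim genes, normalization, an added 16, the prior, array weights, the replicate block, thresholds and left-out arrays.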

Additional observations from a re-analysis of the deposited data

Results flagged for a closer look

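Among the 38 genes examined (the 15 largest differences each way in U937 and the 16 largest of the line contrast, some in both), the hairpin difference in U937 departed from the mean difference of MOLM-14 and HL-60 for 29, with limma adjusted p from 4.52e-09 to 0.0343. The contrast uses the same U937 arrays that ranked these genes, so its values are a description of them. Where the U937 difference lay above that of the other lines, the gap was 2.08 log2 for SLPI, 1.84 for TSGA10, 1.81 for CMAHP, 1.80 for GSG1, 1.76 for MS4A3, 1.70 for ARHGEF3, 1.67 for PDYN, 1.65 for PPARGC1A, 1.57 for SPOCK1, 1.21 for HLA-DRA, 1.16 for DPEP2, 0.93 for KCNMB1, 0.67 for TASOR, 0.49 for H2BC12 and 0.46 for DYNLT3. SLPI, a protease inhibitor, rose in U937 (0.53) and fell in MOLM-14 (-2.47) and HL-60 (-0.64). MS4A3 rose in U937 (0.74), fell in MOLM-14 (-2.09) and was at 0.05 in HL-60. With the mean of its 2 probe sets, CMAHP differed in U937 by 0.89 in place of 1.37.

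Where it lay below, the gap was -3.28 for TDO2, -1.70 for BLM, -1.65 for SCML1, -1.64 for DTL, -1.64 for MS4A4A, -1.62 for CDC45, -1.60 for RRM2, -1.60 for FEN1, -1.24 for TRIP13, -1.17 for CCNE2, -1.14 for S100A8, -1.07 for PLK4, -0.54 for GLIPR1 and -0.52 for ITGAM. S100A8 fell in MOLM-14 further than in U937 (-3.56 against -3.22) and by less in HL-60 (-0.61), so its gap comes from the mean of unlike lines. RRM2 differed by -1.70 in U937, -0.12 in MOLM-14 and -0.08 in HL-60.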

How the results depend on the processing

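Leaving out each U937 SYK hairpin array in turn gave 980 to 1141 genes higher, 932 to 1117 lower and 1262 to 1536 in the line contrast, in place of 1443, 1354 and 1877. Leaving out each shLuc array, an alternative added after seeing the data, gave 1376 to 1388, 1299 to 1329 and 1772 to 1813. An adjusted p below 0.01 left 909 higher, 911 lower and 1021 in the line contrast, and a minimum of 0.5 log2 left 606, 640 and 1079. The labels share replicate numbers without saying that these mark shared transductions, and the same-numbered deviations of shSYK_1 and shSYK_2 correlated at -0.0349, so the numbers show no pairing. A replicate block gave 1144 higher, 1091 lower and 1230 in the line contrast. Over the settings other than thresholds, 33 to 36 G1/S and 36 to 37 G2/M genes fell. SYK stayed called under all alternatives (-0.47 to -0.39, and -0.37 on its other probe set), as did MYC (0.57 to 0.65), and FLT3 under none (0.12 to 0.27). CCND2 turned to -0.0199 (limma adjusted p = 0.943) with the mean of its probe sets. That summary lost the calls of 12 other named genes of 173, more than any other normalization, prior or model setting, and single left-out hairpin arrays lost 12 to 17. The line contrast was not run with the U937 arrays alone, which hold 1 line. RMA values have no detection call, so dim genes carry no limit of detection.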
